A study of Mus musculus with 12 samples.

Results

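The circadian clock genes described here were the 10 genes *Arntl*, *Per1*, *Per2*, *Per3*, *Nr1d1*, *Nr1d2*, *Dbp*, *Tef*, *Ciart* and *Cry1*, taken by symbol from the 43432 genes of the count table. They were measured by RNA-seq in sciatic nerves of 1-month-old mice in 12 libraries, 1 nerve of 1 mouse each, with 3 males and 1 female in each of 3 groups of 4. WT controls were *Mtmr2* wt/wt and received no niacin. *Mtmr2* KO mice were *Mtmr2* -/- and received no niacin, a model of the demyelinating neuropathy CMT4B1, in which the allele of the phosphoinositide phosphatase MTMR2 is lost throughout the body and not in Schwann cells alone. Niacin-treated *Mtmr2* KO mice were *Mtmr2* -/- and received niacin from P10, at 120 mg/kg by intraperitoneal injection until P21 and then as the slow-release form Niacin-SR by gavage until P30. The line was kept on the 129/SvPas background. No niacin-treated WT group was analysed here, and the labels give the treatment of both other groups as none, while the study's text calls the *Mtmr2* KO mice vehicle treated. The mice lived under normal light and dark cycles. No source used here states the hour at which the nerves were taken, so the clock genes stand in these libraries at an unknown time of day, and the part of that hour in the values was not tested.

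The clock is a feedback loop of transcription that runs in nearly every cell. ARNTL (BMAL1) pairs with CLOCK or NPAS2, binds E-boxes and switches on the *Per* and *Cry* genes, *Nr1d1*, *Nr1d2*, *Ciart*, *Dbp* and *Tef*. PER, CRY and CIART proteins repress that pair, NR1D1 and NR1D2 repress *Arntl* and *Npas2* through nuclear receptor sites, and DBP and TEF act on D-boxes, so *Arntl* transcript runs roughly opposite in phase to *Nr1d1* and *Dbp*. Some of these genes also answer cues from outside the cell. *Per1* is a known target of the glucocorticoid receptor, for instance.

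Several facts of the libraries bear on the values below. Totals were 26653828 to 28390961 counts in WT, 20763951 to 33191106 in *Mtmr2* KO and 20983641 to 22935378 in niacin-treated *Mtmr2* KO libraries. The lowest count of a clock gene in any library was 52, for *Arntl*. Levels are given as CPM, counts scaled to the library total by TMM. *Mtmr2*, the targeted gene, had 127.9 to 160.8 CPM in WT, 69.4 to 84.6 CPM in 3 *Mtmr2* KO libraries and 66.7 to 73.4 CPM in the niacin-treated group, but 143.0 CPM in the library labelled *Mtmr2* KO 4503, which lies inside the WT range. In the paragraphs on *Arntl*, *Nr1d1*, *Nr1d2*, *Ciart* and *Dbp*, fold changes that involve the *Mtmr2* KO group are therefore given with and without it. *Xist* was high in 1 library of each group, as the stated sexes require. Genes of myelinating Schwann cells summed to between 61920 and 117900 CPM in every library, so the labelled tissue carried its defining markers.

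The promoters of the clock genes differ in the elements they carry. A window from 250 bases before to 50 bases after the annotated start was taken from RefSeq on GRCm38.p6 for 9 of the 10 genes, 12 windows in all. *Per2* has no entry. Both strands were searched for the E-box CACGTG, the E-prime box CACGTT, the nuclear receptor motif AGGTCA and the D-box TTANGTAA. CACGTG occurred in 5 of the 12 windows, from *Per1*, *Tef*, *Ciart* and *Cry1*, against 7.15% of the 32851 windows of all genes. CACGTT occurred in 2 windows, from *Nr1d1* and *Cry1* (4.68% of all windows), and AGGTCA in 3, from *Arntl*, *Per1* and *Nr1d2* (16.3%). TTANGTAA occurred in that of *Per3* alone among the clock genes, at 2 places (2.32%). Such matches describe letters and not binding. The 4 windows printed belong to the genes whose niacin-treated and WT values did not overlap, written 5′ to 3′ on the gene's strand with the matches in capitals. *Ciart* (chr3:95882179-95882478, minus strand) holds 3 E-boxes starting at -116, -58 and -44 from the start, *Nr1d1* (chr11:98775328-98775627, minus strand) an E-prime box read on the opposite strand at -28, *Nr1d2* (chr14:18239057-18239356, minus strand) AGGTCA at -77, and the second annotated start of *Arntl* (chr7:113207261-113207560, plus strand) AGGTCA at 32. The window of the first annotated start of *Arntl*, not printed, holds no match.
Ciart: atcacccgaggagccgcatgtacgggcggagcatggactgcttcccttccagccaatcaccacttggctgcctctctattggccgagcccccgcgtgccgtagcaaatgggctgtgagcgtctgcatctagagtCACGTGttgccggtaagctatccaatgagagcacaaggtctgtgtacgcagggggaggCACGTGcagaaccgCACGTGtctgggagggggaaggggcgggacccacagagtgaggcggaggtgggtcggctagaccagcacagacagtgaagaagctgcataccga
Nr1d1: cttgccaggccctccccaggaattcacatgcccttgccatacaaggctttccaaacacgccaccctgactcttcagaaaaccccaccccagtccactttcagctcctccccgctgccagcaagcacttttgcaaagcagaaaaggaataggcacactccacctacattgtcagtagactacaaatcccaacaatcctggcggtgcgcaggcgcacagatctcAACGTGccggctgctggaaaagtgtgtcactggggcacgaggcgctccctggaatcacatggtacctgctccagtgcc
Nr1d2: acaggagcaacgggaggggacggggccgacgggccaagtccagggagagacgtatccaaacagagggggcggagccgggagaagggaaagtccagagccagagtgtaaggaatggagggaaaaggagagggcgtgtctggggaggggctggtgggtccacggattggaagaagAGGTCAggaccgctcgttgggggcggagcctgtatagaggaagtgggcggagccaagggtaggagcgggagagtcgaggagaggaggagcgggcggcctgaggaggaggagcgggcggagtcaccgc
Arntl: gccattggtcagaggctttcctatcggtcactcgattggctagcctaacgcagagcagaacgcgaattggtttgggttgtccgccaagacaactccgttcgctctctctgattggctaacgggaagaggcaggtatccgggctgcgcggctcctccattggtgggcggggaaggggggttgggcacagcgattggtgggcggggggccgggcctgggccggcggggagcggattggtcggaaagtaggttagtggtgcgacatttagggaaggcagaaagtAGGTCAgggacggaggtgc

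*Arntl* (chr7:113207465-113314126, plus strand), the activator of the loop, was the clock gene whose level differed most between libraries. WT libraries 4497 to 4500 had 5.81, 8.37, 8.20 and 10.2 CPM. *Mtmr2* KO libraries 4501 to 4504 had 3.41, 5.06, 17.1 and 6.39 CPM, and niacin-treated libraries 4505 to 4508 had 2.54, 3.98, 4.06 and 2.40 CPM. All 4 niacin-treated libraries lay below all 4 WT libraries, while the *Mtmr2* KO group spanned both, with its highest value in library 4503. Group means were 8.15 ± 1.80 in WT, 7.98 ± 6.17 in *Mtmr2* KO and 3.25 ± 0.898 in niacin-treated *Mtmr2* KO (SD, n = 4). The *Mtmr2* KO mean rested on library 4503 and was 4.95 ± 1.49 without it (SD, n = 3). Niacin-treated against WT the log2 fold change was -1.32 with a standard error of 0.41 and an adjusted p of 0.112 by edgeR. Set against *Mtmr2* KO the niacin-treated level differed by -1.30 (adjusted p = 0.116), and -0.60 (adjusted p = 0.361) without library 4503. *Mtmr2* KO against WT it was -0.02, and -0.73 without that library (adjusted p = 0.198).

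*Npas2*, which can take the place of CLOCK and is likewise repressed by NR1D1 and NR1D2, was not among the 10 genes but followed the same order. It had 1.96, 2.08, 2.39 and 2.32 CPM in WT, 0.696, 1.48, 3.04 and 2.16 CPM in *Mtmr2* KO and 1.03, 0.563, 1.23 and 0.942 CPM in niacin-treated libraries, from as few as 13 counts. Again library 4503 was the highest and the niacin-treated values lay below those of WT, at a log2 fold change of -1.22, with an SE of 0.38 and an adjusted p of 0.110 by edgeR. *Clock*, the usual partner, lay much closer together, at 75.4 to 84.9 CPM in WT, 76.4 to 101.2 CPM in *Mtmr2* KO and 83.2 to 107.6 CPM in niacin-treated libraries.

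**Figure D1:**
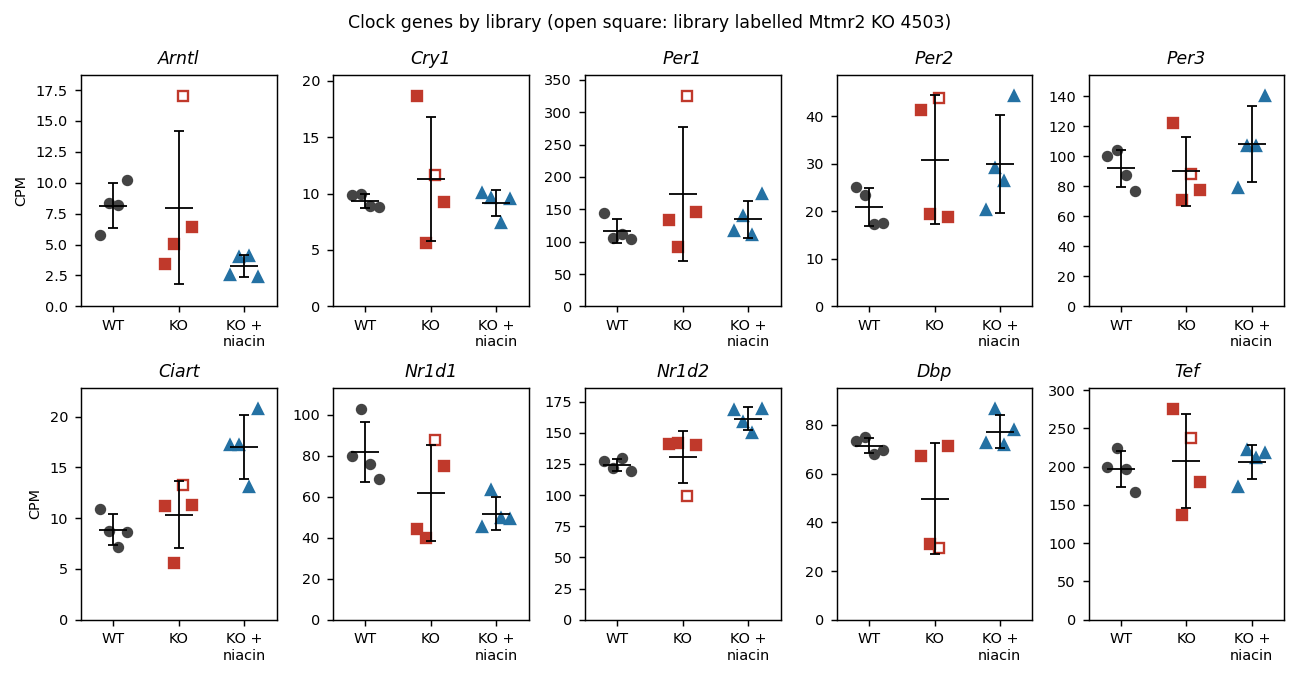
CPM of the 10 clock genes in each library of WT control (circles), *Mtmr2* KO (squares) and niacin-treated *Mtmr2* KO (triangles), with the mean and SD of each group (n = 4) and the library labelled *Mtmr2* KO 4503 as an open square. *Arntl* and *Nr1d1* in the niacin-treated group lie below every WT library, *Nr1d2* and *Ciart* above every WT library, and the *Mtmr2* KO group is the widest for all 10 genes but *Per3*.

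*Nr1d1* and *Nr1d2*, the nuclear receptors that repress *Arntl*, lay on opposite sides of WT in the niacin-treated group. *Nr1d1* (chr11:98767932-98775333, minus strand) had 79.9, 102.8, 75.9 and 68.5 CPM in WT, 44.3, 39.6, 87.8 and 74.8 CPM in *Mtmr2* KO and 45.3, 63.5, 49.4 and 48.9 CPM in niacin-treated libraries. Every niacin-treated value was below every WT value, at a mean of 51.8 ± 8.01 against 81.8 ± 14.8 CPM (SD, n = 4), and the *Mtmr2* KO libraries formed a low pair, 4501 and 4502, and a pair within the WT range. *Nr1d2* (chr14:18204054-18239127, minus strand) had 127, 121, 130 and 119 CPM in WT, 141, 142, 99.6 and 140 CPM in *Mtmr2* KO and 168, 159, 150 and 169 CPM in niacin-treated libraries. The niacin-treated values lay above those of both other groups, and library 4503 lay below all 11 others. The log2 fold changes of niacin-treated against WT were -0.66 ± 0.23 for *Nr1d1* (adjusted p = 0.132 by edgeR) and 0.38 ± 0.13 for *Nr1d2* (adjusted p = 0.126), and against *Mtmr2* KO they were -0.25 and 0.31. Without library 4503 the differences from *Mtmr2* KO were -0.03 for *Nr1d1* (adjusted p = 0.969) and 0.20 for *Nr1d2* (adjusted p = 0.456). The exons of *Nr1d1* share 263 bases with *Thra* on the other strand, so that without known strand handling a part of its counts may belong to that gene.

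*Ciart* (chr3:95878503-95882251, minus strand), an E-box-driven repressor of the ARNTL pair, had the highest niacin-treated level relative to WT. WT libraries had 10.9, 8.76, 7.15 and 8.67 CPM, *Mtmr2* KO libraries 11.2, 5.59, 13.3 and 11.3 CPM, and niacin-treated libraries 17.2, 17.2, 13.1 and 20.8 CPM. The niacin-treated libraries lay above all WT libraries and overlapped *Mtmr2* KO through library 4503 alone. The mean was 17.1 ± 3.16 against 8.86 ± 1.53 CPM (SD, n = 4). On the log2 scale this was 0.95 ± 0.24 (SE), with an adjusted p of 0.0847 by edgeR, the smallest of the 10 genes in this comparison. Against *Mtmr2* KO it was 0.72 ± 0.23 (adjusted p = 0.122), and 0.86 (adjusted p = 0.138) without library 4503.

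The *Per* genes, whose proteins repress the ARNTL pair, overlapped between groups in each comparison. *Per1* (chr11:69095217-69109960, plus strand) had 144, 105, 111 and 105 CPM in WT, 133, 91.7, 326 and 146 CPM in *Mtmr2* KO and 116, 139, 110 and 173 CPM in niacin-treated libraries. Library 4503 stood far above the 11 others, and without it the *Mtmr2* KO mean went from 174 ± 104 to 124 ± 28.5 CPM, close to the WT mean of 116 ± 19.0. *Per2* (chr1:91415982-91459324, minus strand) had 25.1, 23.6, 17.4 and 17.5 CPM in WT, 41.3, 19.5, 43.8 and 18.8 CPM in *Mtmr2* KO and 20.3, 29.1, 26.3 and 44.4 CPM in niacin-treated libraries, so 3 libraries, 4501, 4503 and 4508, exceeded 40 CPM in no one group. *Per3* (chr4:151003652-151044665, minus strand) ranged from 76.9 to 104 CPM in WT, from 71.2 to 122 CPM in *Mtmr2* KO and from 78.6 to 140 CPM in niacin-treated libraries. *Cry1* (chr10:85131700-85185064, minus strand), another repressor, had 9.85, 9.98, 8.89 and 8.77 CPM in WT, 18.7, 5.59, 11.6 and 9.27 CPM in *Mtmr2* KO and 10.1, 9.57, 7.44 and 9.55 CPM in niacin-treated libraries. WT and niacin-treated values were interleaved, at a log2 fold change of -0.03 with a 95% interval from -0.61 to 0.55.

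*Dbp* and *Tef* encode PAR bZIP factors that carry the clock to D-box genes. *Dbp* (chr7:45705088-45710203, plus strand) had 73.5, 74.9, 68.0 and 69.6 CPM in WT, 67.3, 31.1, 29.3 and 71.3 CPM in *Mtmr2* KO and 72.6, 86.6, 71.6 and 78.1 CPM in niacin-treated libraries. WT and niacin-treated libraries lay close together, whereas *Mtmr2* KO libraries 4502 and 4503 held less than all 10 others. Niacin-treated values were above those of *Mtmr2* KO without overlap, but only as 71.6 against 71.3 CPM, and the fitted log2 difference was 0.64 with an SE of 0.25 and an adjusted p of 0.178 by edgeR. *Mtmr2* KO against WT it was -0.52 ± 0.25 (adjusted p = 0.296). Without library 4503 these *Dbp* differences were 0.45 (adjusted p = 0.399) and -0.34 (adjusted p = 0.419). *Tef* (chr15:81802421-81826863, plus strand) had 200.1, 225, 197 and 167 CPM in WT, 276, 137, 238 and 180 CPM in *Mtmr2* KO and 173, 223, 211 and 218 CPM in niacin-treated libraries, with no separation between groups. Exons of *Dbp* share 539 bases with *Sphk2* and those of *Tef* 193 bases with *Gm17597*, both on the other strand.

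None of the 10 genes passed an adjusted p of 0.05 by edgeR in any comparison, and few genes did in all. Called were 0.267% of the 17257 tested genes in *Mtmr2* KO against WT, 1.43% in niacin-treated against *Mtmr2* KO and 0% in niacin-treated against WT, where the smallest adjusted p of any gene was 0.0833. At an unadjusted p under 0.05 there were 0, 4 and 4 of the 10 clock genes, against 17.2%, 20.1% and 24.7% of the tested genes. DESeq2 on the 12 libraries called 0, 1 (*Arntl*) and 2 (*Arntl* and *Ciart*) of the 10 in these comparisons, against 3.77%, 6.42% and 7.56% of the genes it tested.

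Values of single genes did not overlap between groups for 0 of 10 clock genes in *Mtmr2* KO against WT (9.33% of tested genes), for 2 of 10 in niacin-treated against *Mtmr2* KO (*Nr1d2* and *Dbp*, both higher; 6.98%, and 3.6% higher) and for 4 of 10 in niacin-treated against WT (*Arntl* and *Nr1d1* lower, *Nr1d2* and *Ciart* higher; 31.4%, of which 16.6% lower and 14.8% higher). The last count is near the share of the whole transcriptome, so those 4 genes do not set the clock apart from other genes in that comparison. For such a gene the exact two-sided permutation test of 4 against 4 libraries gave 0.0286, the smallest p it allows, before any adjustment. The median log2 fold change of the 10 genes was 0.07, -0.03 and 0.16 in the 3 comparisons, beside 0.03, -0.04 and 0.02 over all tested genes. The comparisons share their libraries in pairs and are not independent of each other.

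Whether niacin-treated and WT levels passed the test depended on the libraries in the fit. The fit over 12 libraries takes 1 estimate of the spread from the 3 groups. Fitted on the 8 niacin-treated and WT libraries alone, edgeR called *Arntl* (adjusted p = 0.00275), *Ciart* (0.00292), *Nr1d1* (0.00548) and *Nr1d2* (0.00649), 4 of 10, beside 33.9% of 16501 genes. DESeq2 on the same 8 libraries called these and *Per2* (adjusted p = 0.0424), 5 of 10 beside 37.8%, and limma-voom with library weights over 12 libraries called the same 4 genes beside 42.4%. Leaving out *Mtmr2* KO library 4502 from the edgeR fit over the 3 groups also gave these 4 (21.6% of genes), and leaving out library 4503 gave *Arntl* alone, at an adjusted p of 0.0497 (1.74%). Most alternative fits called none of them. Of 21 such fits, *Arntl* was called in 6, *Ciart* in 5, *Nr1d1* and *Nr1d2* in 4 each and *Per2* in 1. Fold changes of the 4 genes kept their direction in each of these fits.

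**Figure D2:**
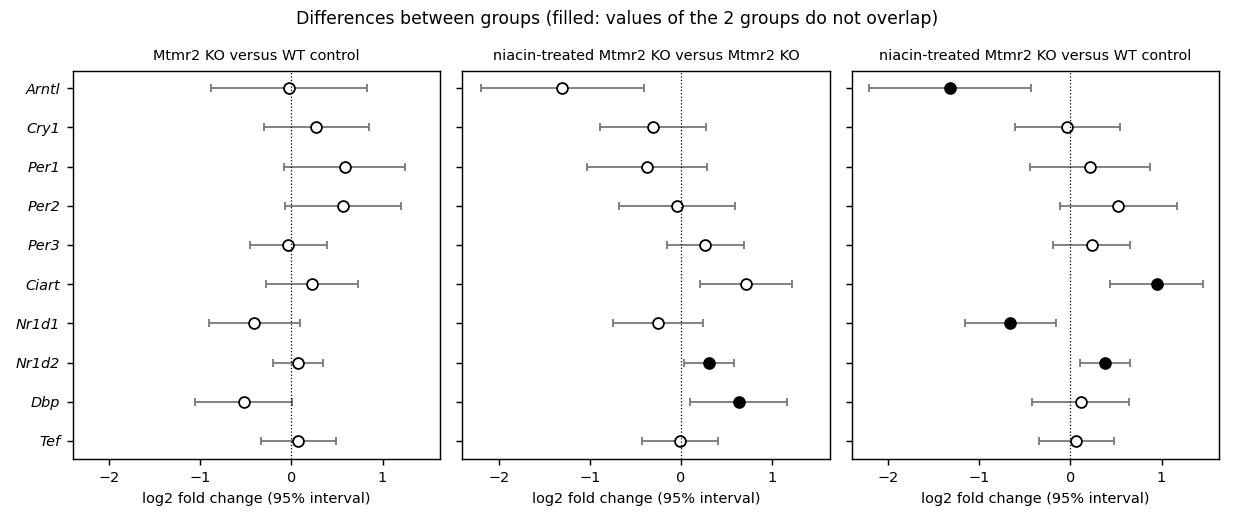
Log2 fold change with its 95% interval (edgeR over 12 libraries) of each clock gene in the 3 comparisons, filled where the values of the 2 groups do not overlap. Intervals in niacin-treated against WT lie off 0 for *Arntl*, *Ciart*, *Nr1d1* and *Nr1d2*. In niacin-treated against *Mtmr2* KO they also lie off 0 for 4 of the 10 genes. None of the 30 differences had an adjusted p under 0.05.

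Across all 12 libraries the clock genes differed greatly in how much they varied. The highest library exceeded the lowest 7.11-fold for *Arntl*, 3.71-fold for *Ciart*, 3.55-fold for *Per1*, 3.34-fold for *Cry1*, 2.96-fold for *Dbp*, 2.59-fold for *Nr1d1*, 2.56-fold for *Per2*, 2.01-fold for *Tef*, 1.97-fold for *Per3* and 1.70-fold for *Nr1d2*. The SD of log2 CPM over the 12 libraries was 0.83 for *Arntl*, larger than for 95.1% of tested genes, and 0.22 for *Nr1d2*, larger than for only 21.1%. Within groups the median SD over the 10 genes was 0.21 in WT, 0.61 in *Mtmr2* KO and 0.24 in niacin-treated *Mtmr2* KO, beside 0.16, 0.40 and 0.22 over all tested genes. The wider *Mtmr2* KO group was thus shared with other genes. Within it the libraries parted in different ways. Library 4502 had the lowest level of the 12 for 6 clock genes, *Per1*, *Per3*, *Nr1d1*, *Tef*, *Ciart* and *Cry1*. That library differed outside the clock genes too, in both directions. Its median log2 deviation from the WT mean was -0.489 for Schwann cell, -0.958 for endothelial and 0.747 for macrophage markers. Library 4503 was the highest for *Arntl* and *Per1* and the lowest for *Nr1d2* and *Dbp*, and library 4501 was the highest for *Tef* and *Cry1*.

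**Figure D3:**
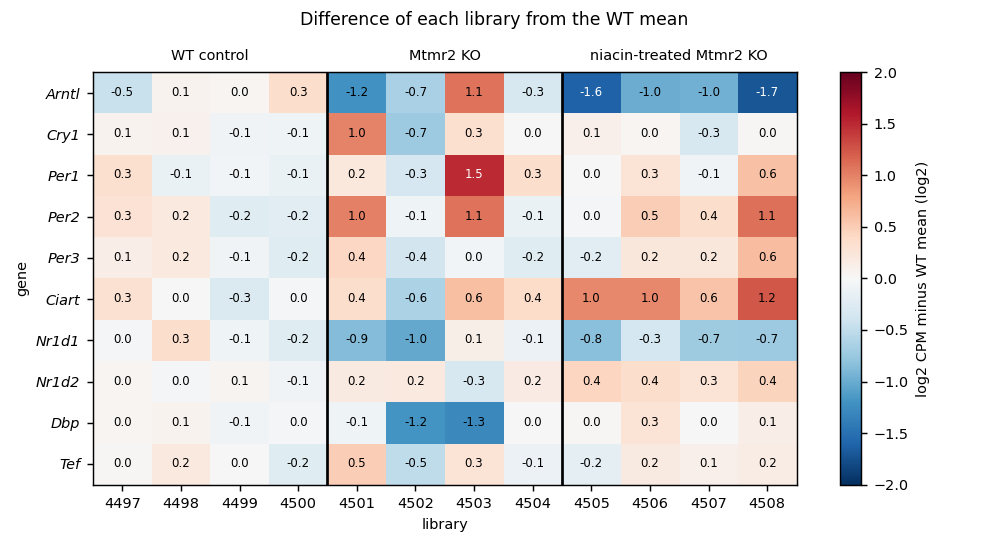
Log2 CPM of each clock gene in each library minus the mean of the 4 WT libraries, red above and blue below. The niacin-treated libraries share low *Arntl* and *Nr1d1* and high *Ciart* and *Nr1d2*. *Mtmr2* KO libraries 4501 and 4504 have the same directions for these genes. In that order they are -1.21, -0.87, 0.35 and 0.18 in 4501 and -0.32, -0.11, 0.37 and 0.17 in 4504. *Mtmr2* KO libraries 4502 and 4503 depart from that pattern.

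Per kilobase of exon, *Arntl* was the least abundant of the 10 genes in each group, at 1.08 ± 0.239, 1.06 ± 0.820 and 0.432 ± 0.119 CPM per kilobase in WT, *Mtmr2* KO and niacin-treated *Mtmr2* KO (SD, n = 4), followed by *Cry1* at 2.74 to 3.38. The most abundant was *Nr1d1* in WT (26.6 ± 4.81), *Per1* in *Mtmr2* KO (30.9 ± 18.4) and *Nr1d2* in niacin-treated *Mtmr2* KO (29.8 ± 1.68). In WT, *Nr1d1*, *Tef* (25.1 ± 3.04), *Dbp* (23.9 ± 1.08) and *Nr1d2* (23.0 ± 0.916) lay within their spread of each other. A lower level per library can reflect less RNA per cell or fewer cells of a type, which bulk tissue does not separate.

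Over single libraries, *Arntl* and *Nr1d2* ran opposite to each other. Pearson's r of log2 CPM over the 12 libraries was -0.953 with a two-sided permutation p of 2e-05 from 100000 permutations, and 0.00018 after adjustment over the 9 relations to *Arntl* that were computed. Spearman's rho was -0.937 (permutation p = 4e-05, adjusted p = 0.00036). Without libraries 4503 and 4508, the 2 farthest from the *Arntl* median, r was -0.899 (permutation p = 0.00057). With each group centred on its own mean, and permuting within groups, r was -0.905 at a permutation p of 0.00588, which is 0.0529 after adjustment. Leaving out single libraries kept r between -0.974 and -0.924. *Nr1d1* ran with *Arntl*, at r = 0.753 (permutation p = 0.00538, adjusted 0.0242) and rho = 0.755 (permutation p = 0.0067, adjusted 0.0302). Without the 2 farthest libraries its r was 0.725 (permutation p = 0.0206, adjusted 0.0925), centred on groups 0.684 (permutation p = 0.0750, adjusted 0.337), and without library 4505 0.718 (adjusted permutation p = 0.0566), so that this relation passed over the 12 libraries and not in those cases.

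The other 7 relations to *Arntl* did not pass. *Ciart* had r = -0.493 (permutation p = 0.103, adjusted 0.264; rho = -0.552), but -0.735 without library 4503 (adjusted permutation p = 0.0398) and 0.140 with groups centred. *Dbp* had r = -0.478 (-0.097 without library 4503), *Per3* -0.439, *Per1* 0.318, *Per2* -0.173, *Cry1* -0.045 and *Tef* -0.018, with permutation p from 0.117 to 0.955.

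**Figure D4:**
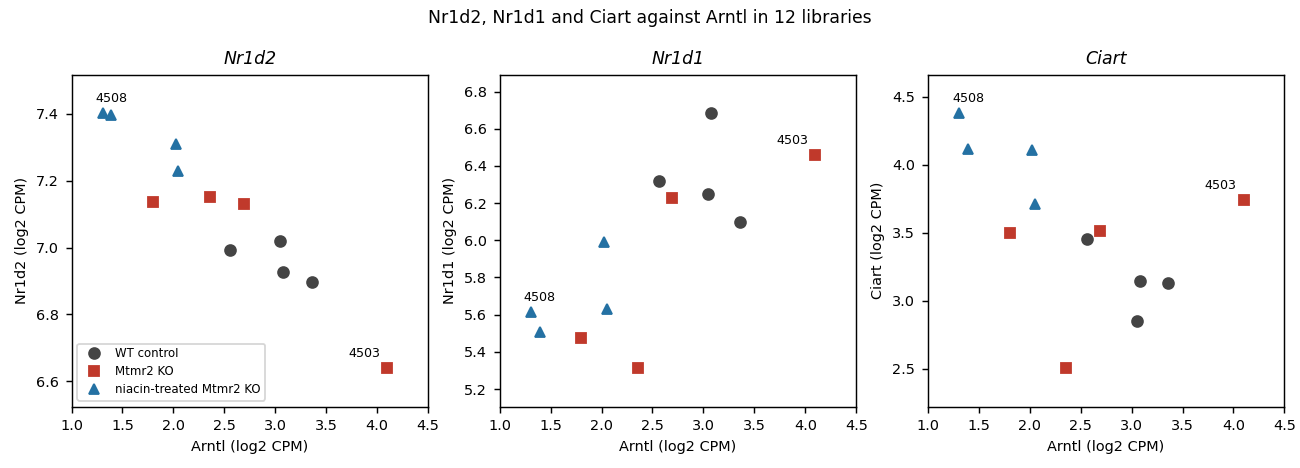
Log2 CPM of *Nr1d2*, *Nr1d1* and *Ciart* against *Arntl* in the 12 libraries, by group. *Nr1d2* is lower where *Arntl* is higher, from the niacin-treated libraries through *Mtmr2* KO and WT to library 4503 (r = -0.953), *Nr1d1* tends upward (r = 0.753), and *Ciart* shows no single line (r = -0.493).

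A single number per library, here called the balance, was the mean log2 CPM of *Nr1d1*, *Nr1d2*, *Dbp*, *Tef*, *Per3* and *Ciart* minus that of *Arntl*. It is given without a test. These 6 genes normally peak away from *Arntl*, but in these libraries *Nr1d1* ran with it (r = 0.753) and *Tef* had r = -0.018. WT libraries had 3.65, 3.17, 3.00 and 2.62, *Mtmr2* KO libraries 4.40, 3.17, 1.91 and 3.44, and niacin-treated libraries 4.76, 4.38, 4.15 and 5.12. The niacin-treated values all exceeded those of WT, with means of 4.60 ± 0.43 and 3.11 ± 0.43 (SD, n = 4), and one *Mtmr2* KO library, 4501, lay among them. Most of this came from *Arntl*, since the 6 genes alone had means of 6.12 ± 0.13 in WT, 5.97 ± 0.30 in *Mtmr2* KO and 6.30 ± 0.14 in niacin-treated *Mtmr2* KO.

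Of 18 other core clock genes, all tested, 0 passed an adjusted p of 0.05 by edgeR in the 3 comparisons. In that order 2, 5 and 4 had an unadjusted p under 0.05, against 17.2%, 20.1% and 24.7% of tested genes. Values did not overlap for 0 of 18 in *Mtmr2* KO against WT (9.33% of tested genes) and for 6 in niacin-treated against WT (31.4%). The count of 6 is near that share, so it does not set these genes apart from others. Among the 6, *Npas2* and the casein kinases *Csnk1d* (log2 fold change -0.45) and *Csnk1e* (-0.39), which phosphorylate PER proteins, were lower. *Nono* (0.34), a partner of PER proteins, and *Rora* (0.23), which activates *Arntl*, were higher. The median log2 fold changes of the 18 genes were 0.05, -0.09 and -0.04 in the 3 comparisons. *Cry2*, a repressor like *Cry1*, had 57.1 to 71.5 CPM in WT, 89.5, 47.2, 200.7 and 68.8 CPM in *Mtmr2* KO and 41.2 to 61.8 CPM in niacin-treated libraries, so that library 4503 again stood apart. Without it the *Mtmr2* KO mean of *Cry2* went from 102 ± 68.3 to 68.5 ± 21.1 CPM.

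Of 8 genes driven by the clock, 0 passed in the 3 comparisons, with medians of 0.13, 0.14 and 0.05. In niacin-treated against WT the cell cycle kinase *Wee1* (0.94, adjusted p = 0.0946 by edgeR), the NAD salvage enzyme *Nampt* (0.36) and *Coq10b* (0.53) were higher without overlap and *Por*, the P450 electron donor, lower (-0.70, adjusted p = 0.123), 4 of 8 beside 31.4% of all tested genes. In *Mtmr2* KO against WT, *Por* (-0.82, adjusted p = 0.118) and *Alas1*, the first enzyme of haem synthesis (-0.72, adjusted p = 0.0849), were lower without overlap, 2 of 8 beside 9.33% of all tested genes.

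Other lists of genes also differed between libraries, and their part in the clock values was not tested. Library 4503, the highest for *Arntl*, *Per1* and *Cry2*, also had the highest sum over 12 glucocorticoid-induced genes, 8934 CPM, against 1514 to 1848 CPM in WT, 2312 to 4264 CPM in the other *Mtmr2* KO libraries and 1287 to 2104 CPM in niacin-treated libraries. Among them *Fkbp5* had 378.8 CPM there and 34.1 to 121.5 CPM elsewhere, and *Tsc22d3* 1198 CPM and 212.0 to 578.0 CPM elsewhere. Of the 12 genes, 0 passed in *Mtmr2* KO against WT, 2 were called lower in niacin-treated against *Mtmr2* KO and 0 in niacin-treated against WT (medians 1.5, -1.29 and -0.15). Of all tested genes 0.267%, 1.43% and 0% were called in these comparisons. In that order 0, 0 and 0 of 7 temperature-response genes were called (medians 0.30, -0.18 and 0.01), with the cold-induced *Rbm3* higher without overlap in niacin-treated against WT (1.03, adjusted p = 0.0833 by edgeR) and *Cirbp*, also cold-induced, overlapping (-0.12, adjusted p = 0.833). The heat shock genes *Hspa8* (0.37) and *Hspa1b* (-0.77) did not overlap there either, one higher and the other lower. Of the 7 genes, 2 were thus higher and 1 lower without overlap, beside 14.8% and 16.6% of all tested genes. Of 8 immediate early genes 0, 1 and 0 were called, that gene being lower (medians 0.11, -0.46 and -0.21).

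Markers of other cells varied too. Skeletal muscle genes summed to 26.2 to 72.6 CPM in WT and *Mtmr2* KO but to 74.6, 3054, 3032 and 101.3 CPM in niacin-treated libraries 4505 to 4508. Against *Mtmr2* KO 5 of 8 were called higher, beside 1.43% of all tested genes called. The niacin-treated libraries without much muscle, 4505 and 4508, had the lowest *Arntl* of the 12. Whether muscle content has a part in the *Arntl* values was not tested. Adipocyte genes summed to 2584 to 3402 CPM in WT, 753.6 to 4554 CPM in *Mtmr2* KO and 2165 to 4410 CPM in niacin-treated libraries. Of these 7 genes, 2 were called lower in *Mtmr2* KO against WT (0.267% of all tested genes called). In niacin-treated against *Mtmr2* KO 1 was called higher (1.43%). Neutrophil genes summed to 0.363 to 0.648 CPM in WT, 0.913 to 14.3 CPM in *Mtmr2* KO and 0.196 to 8.48 CPM in niacin-treated libraries. Of the Schwann cell, fibroblast, endothelial, vascular smooth muscle, macrophage, neutrophil and red blood cell markers 0 were called in the 3 comparisons, and no marker of any list was at 0 in all libraries of a group.

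By Pearson's r over the 12 libraries, and with no test, the tested genes outside the 10 that ran most closely with the balance described above were *Eno1* (r = 0.960), *Eno1b* (0.941), *Camk4* (0.904), *Fdft1* (0.893) and *Papola* (0.891), out of 11403 genes with a mean of at least 5 CPM. *Eno1* and *Eno1b* are near-identical copies that can share reads and may count as 1 gene. *Eno1* had 269 ± 19.7, 270 ± 31.2 and 334 ± 23.6 CPM in WT, *Mtmr2* KO and niacin-treated *Mtmr2* KO (SD, n = 4). Running most opposite were *Cldn14* (-0.938), *Wt1* (-0.921), *Eif3f* (-0.908), *Tmeff1* (-0.908) and *Siah1a* (-0.898). Among the clock-driven genes *Coq10b* came closest, at r = 0.767, rank 107 of 11403. The others lay on both sides of 0, from r = -0.579 to 0.351, so the list as a whole did not follow the balance.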

How the data were processed

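Poly(A)-selected RNA from sciatic nerve was sequenced in 12 libraries on an Illumina HiSeq. Per the labels the authors used CASAVA 1.9, mapped reads to GRCm38 (mm10) with STAR and tested with DESeq2. No source used here names the version of STAR, the counter, the gene models or whether strand was used. The authors deposited whole-number read counts per Ensembl gene without normalization, with no per-sample column left unused. Their 3 tables of comparisons hold log2 fold changes and p-values, of which only the gene symbols were used.

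Counts were tested with edgeR 4.0.16 (R 4.3.3), using filterByExpr, TMM, the quasi-likelihood test over all 12 libraries without covariates and Benjamini-Hochberg adjustment over 17257 of 43432 genes. CPM used TMM-scaled totals, and log2 CPM a prior count of 2. Exon lengths and coordinates came from GENCODE M21. Single genes were also compared by an exact permutation test (70 regroupings), and 9 relations to *Arntl* by 100000 permutations. Replicates are separate mice. Alternatives were DESeq2 1.42.0, limma-voom (limma 3.58.1), fits of 2 groups, other scalings and filters, *Xist* as a covariate and each library left out. The fit was tested on simulated counts. Named were the 10 genes, 14 lists of genes and the 5 genes on each side closest in pattern. The members and lists were chosen with earlier results of these data known. Results for 1 gene of these lists are not reported here.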

Additional observations from a re-analysis of the deposited data

Results flagged for a closer look

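In the *Mtmr2* KO group, *Nr1d2* in library 4503 was 99.58 CPM, while the other 3 libraries had 139.9 to 142.0 CPM. On the scale of log2 CPM, the gap to its nearest neighbour was 0.958 of the range of the group, above the critical value of 0.829 for 4 samples. It was 1 of 30 groups examined (10 genes in 3 groups), and chance flags about 1 in 20 groups. The same library had the highest *Arntl* and *Per1* of the 12 and an *Mtmr2* level inside the WT range. Whether these are related was not tested.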

How the results depend on the processing

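No paired analysis was possible because the libraries carry the numbers 4497 to 4508, none of which is shared between groups. In *Mtmr2* KO against WT, 0 of the 10 clock genes and 0 of the 18 other clock genes were called in each of the 21 alternatives. In niacin-treated against *Mtmr2* KO, clock genes called went to 1 with DESeq2 on 12 libraries and other clock genes to 1 there and to 3 with limma-voom. These fits called 6.42% and 11.6% of all tested genes. In niacin-treated against WT, clock genes called were 2 with DESeq2 on 12 libraries, 5 with DESeq2 and 4 with edgeR on 2 groups and 4 with limma-voom, and other clock genes 1, 6, 6 and 8. In that order these fits called 7.56%, 37.8%, 33.9% and 42.4% of all tested genes. With one library left out, clock genes called ranged from 0 to 0, 0 to 1 and 0 to 4 in the 3 comparisons and other clock genes from 0 to 0, 0 to 3 and 0 to 4, the highest without *Mtmr2* KO library 4502. Without that library, 23.6% of all tested genes were called in niacin-treated against *Mtmr2* KO and 21.6% in niacin-treated against WT. The cause was not tested.

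Over all genes, *Mtmr2* KO against WT gave 683 and 427 calls with DESeq2 on 12 libraries and on 2 groups, 0 with edgeR on 2 groups, 12 with *Xist* as a covariate, 341 without a filter, 91 with plain totals and 108 with limma-voom (0 to 457 with one library left out). Niacin-treated against *Mtmr2* KO gave 1078, 444, 0 and 50 with the first 4 of these, 573 without a filter and 2007 with limma-voom (0 to 4180). Niacin-treated against WT gave 1070 and 5791 with DESeq2, 5586 with edgeR on 2 groups, 311 without a filter and 7311 with limma-voom (0 to 3826).

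Outside the fits with one library left out, directions turned for *Tef* in niacin-treated against *Mtmr2* KO (0.0013 with DESeq2 on 2 groups, 0.0948 with plain totals), *Per2* there (0.0838 with plain totals), and in *Mtmr2* KO against WT *Arntl* (0.0016 with at least 10 counts in each library), *Nr1d2* and *Tef* (-0.0079 and -0.0009 with plain totals) and *Per3* (0.0053 with limma-voom). With one library left out, ranges that crossed 0 were, in *Mtmr2* KO against WT, -0.7251 to 0.2254 for *Arntl* (lowest without library 4503), -0.2243 to 0.0567 for *Per3*, -0.0951 to 0.2250 for *Tef* and -0.0853 to 0.4909 for *Cry1*. In niacin-treated against *Mtmr2* KO they were -0.6021 to 0.1223 for *Per1* (highest without 4503), -0.2907 to 0.1750 for *Per2*, -0.1804 to 0.1582 for *Tef* and -0.5416 to 0.0503 for *Cry1*, and in niacin-treated against WT -0.0101 to 0.1355 for *Tef* and -0.0863 to 0.0504 for *Cry1*.

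Relations to *Arntl* past an adjusted p of 0.05 went from 2 to 0 with groups centred, to 1 without the 2 farthest libraries and to between 1 and 3 with one library left out. With groups centred r turned for *Per2* (0.0838), *Tef* (0.0773) and *Ciart* (0.1400), and without the 2 farthest libraries for *Per1* (-0.2463). With one library left out r crossed 0 for *Per1* (-0.4687 to 0.4923), *Per2* (-0.6732 to 0.0580), *Tef* (-0.2611 to 0.1492) and *Cry1* (-0.2355 to 0.2358). The balance against *Arntl* moved to 3.71 in WT and 5.05 in niacin-treated *Mtmr2* KO without *Ciart*, and to 6.12, 5.97 and 6.30 without *Arntl*.

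With 4 libraries a group and 52 *Arntl* counts in the lowest library, what can be called is limited. Counting error was not separated from the spread between mice. A p that misses the threshold does not show that clock genes were alike, and 1 time point per mouse gives no phase.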
